A study of Rattus norvegicus with 4 samples.

Results

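Receptors for catecholamines, angiotensin II and endothelin were examined on 4 Affymetrix rat expression arrays of cultured ventricular myocytes of neonatal rats, the beating muscle cells of the heart's main chambers. The members were every probe set whose single gene symbol in the platform annotation was Adrb1, Adra1a, Adra1b, Adra1d, Agtr1a, Agtr2, Ednra or Ednrb. Of these 8 genes 6 had a probe set, and the endothelin receptors Ednra and Ednrb had none under this annotation and were not analysed here. The 6 genes, of 10411 named on the array, gave 8 of the 15866 probe sets that remained after 9 Affymetrix control probe sets were left out, because Agtr1a and Agtr2 had a pair each. The fibronectin group was cells on dishes coated with fibronectin, a matrix glycoprotein bound by integrins, and the control group was cells on uncoated dishes, with 2 arrays in each. Both groups spent 24 h in 10% serum and the following 48 h without serum, and total RNA was hybridised. The labels name no treatment with a receptor agonist and do not say whether replicates are separate cultures, so that p-values cover the spread between these 4 samples alone, and that spread may be technical.

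These receptors sit in the plasma membrane and signal through heterotrimeric G proteins. Adrb1 encodes the main beta-adrenergic receptor of the heart, which acts through Gs and cyclic AMP to raise the rate and force of contraction. Adra1a, Adra1b and Adra1d encode the alpha-adrenergic receptors that act through Gq and phospholipase C, as does the angiotensin receptor encoded by Agtr1a, and agonists of this class are classical inducers of growth in cultured neonatal myocytes. Agtr2 encodes the other angiotensin receptor, which is prominent in fetal tissue and often counteracts the receptor encoded by Agtr1a.

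The receptor transcripts were mostly dim. A signal here is the deposited intensity after quantile normalization of the 4 arrays, and the floor is 23.4, the 20th percentile of all signals. Values at or below the floor were set to it before log2 was taken and have no order among themselves. Only 2 of the 8 receptor probe sets, 1 for Adra1b and 1 for Agtr1a, were above the floor on all 4 arrays, or 25% of them, against 64.2% of all probe sets. Of the 32 receptor values 13 were at the floor. The number of receptor probe sets above the floor was 4 and 5 on fibronectin replicates 1 and 2, against 5 on each control array. A difference in signal between groups in these bulk samples can come from fewer cells of a type or from less RNA per cell, which cannot be told apart.

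**Figure D1:**
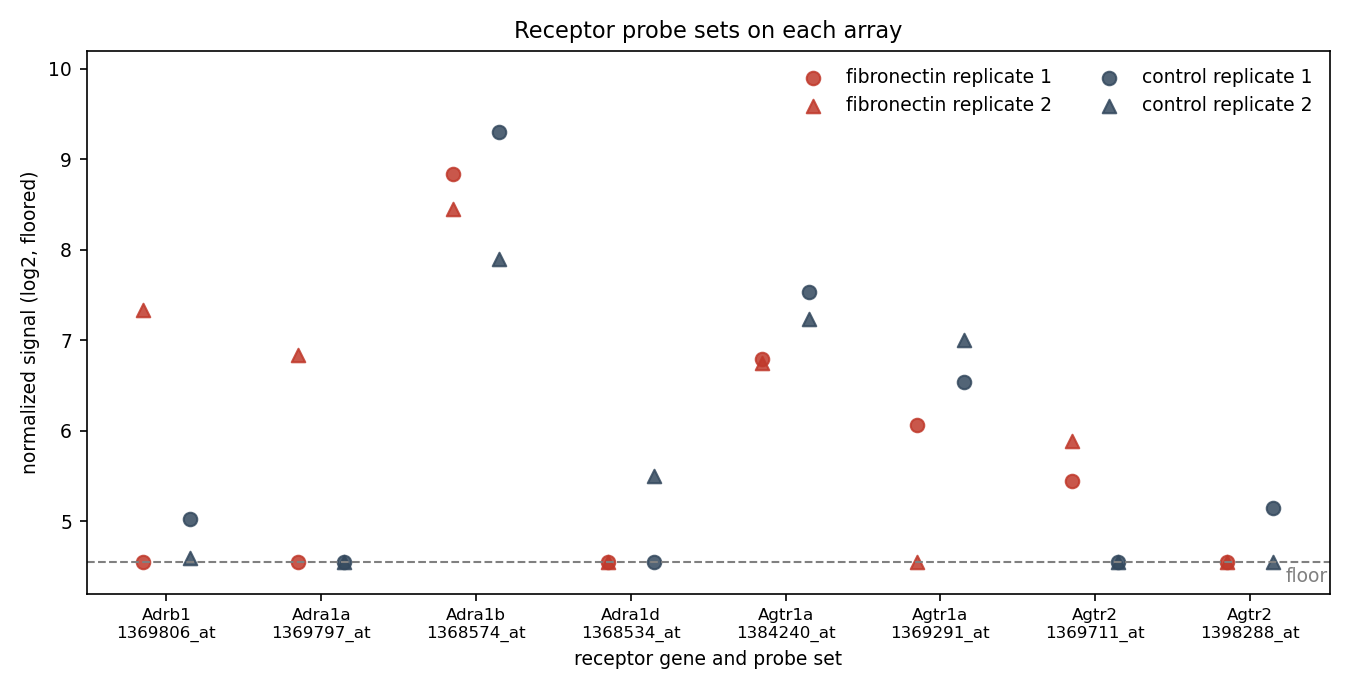
Log2 normalized signal (vertical axis) of the 8 receptor probe sets (horizontal axis) on 2 fibronectin arrays (red) and 2 control arrays (dark blue), with circles for replicate 1 and triangles for replicate 2. The dashed line is the floor. The probe sets of Adra1b and one of the Agtr1a pair lie above it on all 4 arrays, and most points of Adra1a, Adra1d and the probe set 1398288_at of Agtr2 lie on it.

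Limma's test with Benjamini-Hochberg adjustment was fitted to the 9519 probe sets that remained after the 40% with the lowest mean log2 signal were left out. It covered 3 receptor probe sets, 1 of Adra1b and both of Agtr1a, and 5 were left out as dim. Of the 3, 0 passed the adjusted threshold of 0.05 and 0 had an unadjusted p under it. Of all tested probe sets 0% passed, and 619 had an unadjusted p under 0.05. Fitted to all probe sets without that filter, the smallest unadjusted p among the 8 was 0.0103, for a probe set of Agtr2, with a Benjamini-Hochberg adjusted p of 0.546. Both control values of that probe set were set to the floor, which made their SD 0, so this p does not cover their spread. The groups did not overlap, with fibronectin below control, for 2 receptor probe sets, as for 15.7% of all probe sets. They did not overlap, with fibronectin above, for 1, as for 16% of all probe sets. With fibronectin replicate 2 left out 4 of the 8 did not overlap, or 50%, against 60.5% of all probe sets, and with fibronectin replicate 1 left out 5 did not, or 62.5%, against 72%. With either control left out 5 did not overlap, against 52% of all probe sets. The gap between replicates of 1 group was larger than the difference between the groups in 6 of the 8 receptor probe sets, or 75%, against 72.7% of all probe sets.

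Adrb1 had signals of 7.10 and 161.1 on fibronectin replicates 1 and 2, against 32.7 and 24.1 on control replicates 1 and 2. The fibronectin arrays were the lowest and the highest of the 4, and both controls lay between them, the second barely above the floor. On the log2 scale the means were 5.94 ± 1.97 on fibronectin arrays and 4.81 ± 0.31 on controls (SD, n = 2 each), a difference of 1.13 that rested on fibronectin replicate 2. Without that array the difference was -0.25, and without fibronectin replicate 1 it was 2.47. Adrb1 was left out of the test as dim.

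Adra1a, an alpha-adrenergic receptor gene implicated in hypertrophy of rat myocytes, had signals of 3.28 and 114.7 on fibronectin replicates 1 and 2, against 21.1 and 2.17 on control replicates 1 and 2. Only fibronectin replicate 2 was above the floor, so that no fold is given. The log2 difference of 1.15 became 0 without that array. Adra1d, the third alpha-adrenergic member of this subfamily, also had a single array above the floor. Its signals were 11.1 and 20.4 on fibronectin, against 15.9 and 45.2 on the controls, and the groups overlapped. The log2 difference of -0.47 became 0 without control replicate 2.

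Adra1b was above the floor on every array. Its signals were 456.5 and 350.1 on fibronectin replicates 1 and 2, against 629.4 and 238.0 on control replicates 1 and 2. The controls were the highest and the lowest of the 4 and differed 2.64-fold from each other, while the fibronectin arrays between them differed 1.30-fold. Mean log2 signals were 8.64 ± 0.27 on fibronectin arrays and 8.60 ± 0.99 on controls (SD, n = 2 each). The difference of 0.05 (SE 0.49) had a 95% interval from -1.09 to 1.18 in limma, with a Benjamini-Hochberg adjusted p of 0.987. That interval holds changes of more than a doubling or halving, so that these arrays do not exclude a difference of such size. Its sign turned to -0.66 without control replicate 2 and to -0.15 without fibronectin replicate 1.

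Agtr1a was the receptor gene whose probe sets were both lower on fibronectin without overlap. Probe set 1384240_at had signals of 110.5 and 107.5 on fibronectin replicates 1 and 2, against 185.3 and 150.8 on control replicates 1 and 2. Here the spread within groups was small, 1.03-fold between the fibronectin arrays and 1.23-fold between the controls. Mean log2 signals were 6.77 ± 0.03 on fibronectin arrays and 7.39 ± 0.21 on controls (SD, n = 2 each), 1.53-fold lower on fibronectin. The difference of -0.62 (SE 0.45) had a 95% interval from -1.65 to 0.42 and did not pass limma's test, with a Benjamini-Hochberg adjusted p of 0.778. With 1 array left out it ran from -0.77 to -0.47.

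The dimmer Agtr1a probe set, 1369291_at, had signals of 66.6 and 5.42 on fibronectin replicates 1 and 2, against 93.0 and 128.4 on control replicates 1 and 2. Both fibronectin arrays lay below both controls, but fibronectin replicate 2 was under the floor. Mean log2 signals were 5.30 ± 1.07 on fibronectin arrays and 6.77 ± 0.33 on controls (SD, n = 2 each), and the difference of -1.47 (SE 0.79) gave a Benjamini-Hochberg adjusted p of 0.765 in limma. It was -0.72 without fibronectin replicate 2 and -2.20 without fibronectin replicate 1. The 2 probe sets shared direction and differed in size, and without fibronectin replicate 2 they measured -0.62 and -0.72. Rats carry a near-identical paralog, Agtr1b, and probes could read both transcripts. The Agtr1b probe set was at the floor on all 4 arrays.

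**Figure D2:**
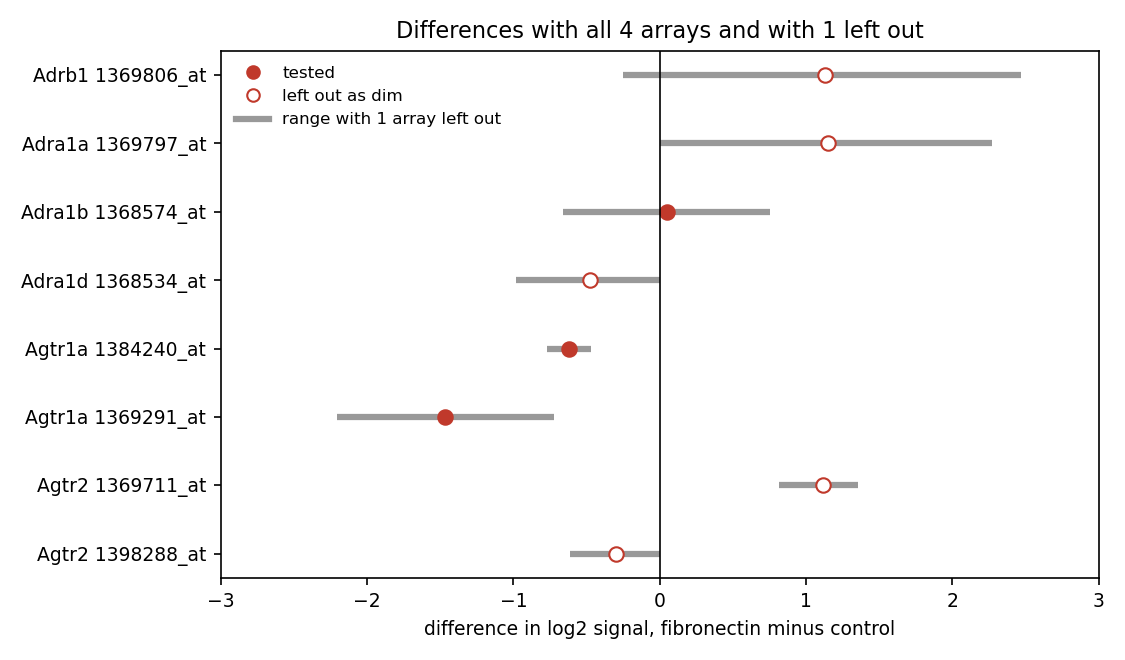
Difference in log2 signal, fibronectin minus control (horizontal axis), for the 8 receptor probe sets (vertical axis). Filled points were tested, open points were left out as dim, and grey bars span the values with each of the 4 arrays left out in turn. The bars of Adrb1 and Adra1b cross 0, and those of both Agtr1a probe sets stay below it.

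In the heart, cardiac fibroblasts as well as myocytes carry the receptor encoded by Agtr1a, and fibroblast markers were lower on the same arrays. Of 15 fibroblast marker genes on the array 12 had lower mean log2 signals on fibronectin, with a median difference of -0.69, and none was at the floor on all arrays. The groups did not overlap for 6 of the 15 with fibronectin below control and for 1 with fibronectin above. Over 7102 genes with a tested probe set these shares were 17.3% and 20.5%. Dcn, the proteoglycan decorin, differed by -1.57, among the largest falls in the list, and Pdgfra, the platelet-derived growth factor receptor of fibroblasts, by -0.83. The 3 genes that were higher were S100a4, Ddr2 and Tcf21, by 0.46, 0.17 and 0.02. The summed signal of the list was 38529 and 53405 on fibronectin replicates 1 and 2, against 50147 and 69426 on control replicates 1 and 2, so that these sums overlapped between groups. Set against each gene's mean on the controls, the median marker was at -0.90 and -0.45 on fibronectin replicates 1 and 2, and Agtr1a probe set 1384240_at was at -0.60 and -0.64. Probe set 1369291_at was at -0.71 and -2.22, lower on replicate 2, where the median marker was higher. The ratio of 3' to 5' signal, a sign of RNA quality, moved with the groups as well. It was 6.02 and 3.52 for the Gapdh control on fibronectin, against 1.64 and 1.15 on the controls, and 13.0 and 6.29 for beta-actin, against 1.46 and 1.40. For hexokinase, 3.11 and 7.0 on fibronectin overlapped with 3.77 and 4.12 on the controls. The part of the fibroblast markers and of these ratios in the Agtr1a difference was not tested.

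**Figure D3:**
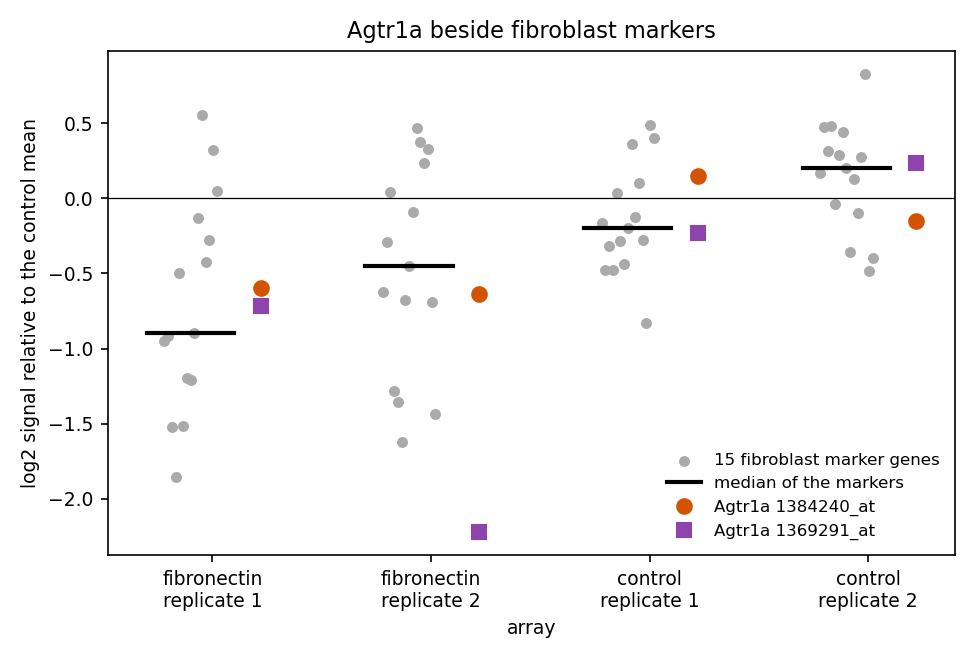
Log2 signal minus each gene's mean over the control arrays (vertical axis) on the 4 arrays (horizontal axis). Grey points are the 15 fibroblast marker genes, black bars their median, and coloured symbols the 2 Agtr1a probe sets. The median marker lies at -0.90 and -0.45 on fibronectin replicates 1 and 2, where both Agtr1a probe sets are also below 0.

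The Agtr2 probe sets went opposite ways, although the annotation ties both to the same expressed sequence tag. Probe set 1369711_at had signals of 43.4 and 59.2 on fibronectin replicates 1 and 2, against 19.1 and 2.74 on control replicates 1 and 2. Both fibronectin arrays were above the floor and both controls at it, so that the signal was at least 2.17-fold higher on fibronectin. With 1 array left out the log2 difference ran from 0.82 to 1.35. Probe set 1398288_at had signals of 21.3 and 2.93 on fibronectin, against 35.5 and 23.1 on the controls, and only control replicate 1 was above the floor. Its log2 difference of -0.30 became 0 without that control. Both were left out of the test as dim, and the direction of the Agtr2 transcript is therefore not settled by these arrays.

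The deposited scale shows how coarse the dim values were. On each array the deposited values were whole multiples of a step, within 0.05 steps for 100% of the values below 200 steps. The step was 0.223 and 1.95 on fibronectin replicates 1 and 2, against 0.1 and 0.233 on control replicates 1 and 2, where the smallest could come from rounding alone. Fibronectin replicate 2 held the Agtr2 probe set 1398288_at at 2 steps, the dimmer Agtr1a probe set at 3 and Adra1d at 8. Its Adrb1 value, the highest of the 4 arrays, stood on 73 steps, and its Adra1a value on 55. On the other arrays the median receptor value spanned 148 steps on fibronectin replicate 1, 398 on control replicate 1 and 144 on control replicate 2, against 40.5 on fibronectin replicate 2.

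**Figure D4:**
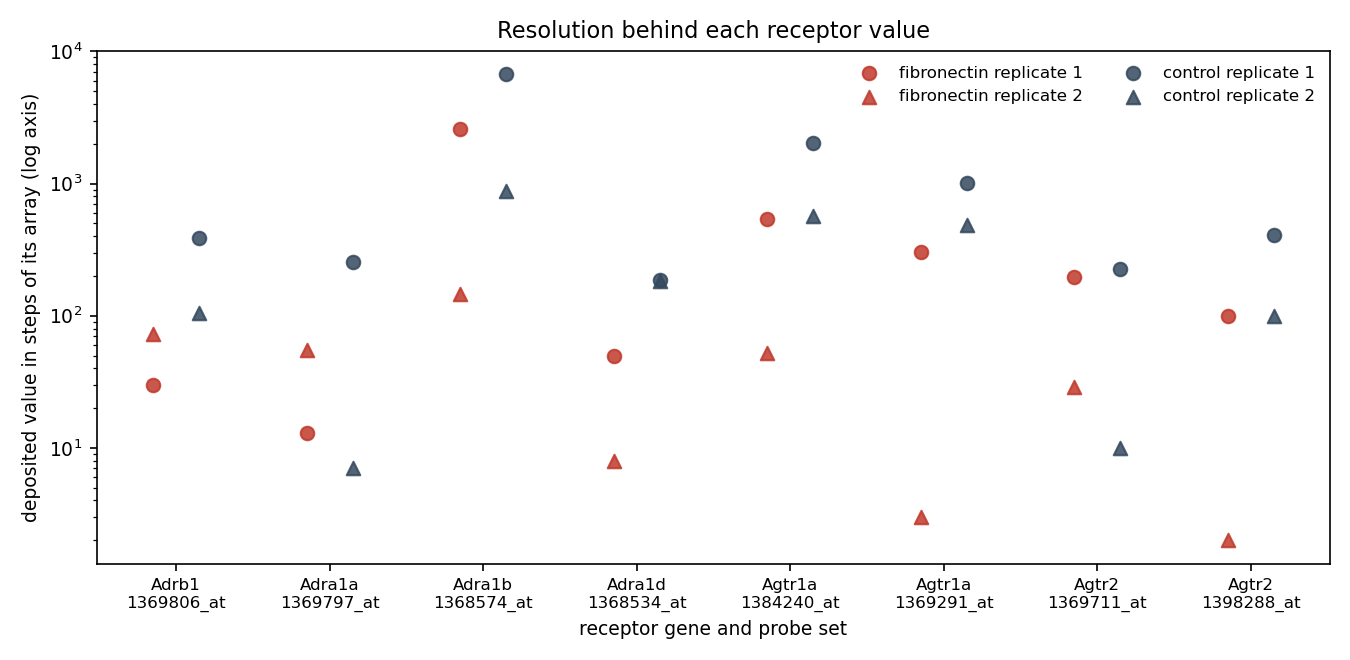
Deposited value of each receptor probe set in steps of its array (vertical log axis), with fibronectin in red and control in dark blue, circles for replicate 1 and triangles for replicate 2. Fibronectin replicate 2 spans 2 to 147 steps, and control replicate 1 spans 185 to 6744.

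Fibronectin replicate 2 stood apart from the other arrays. Over all tested probe sets, whose values are not independent of each other, its log2 signals correlated at 0.792 with fibronectin replicate 1 and at 0.775 and 0.794 with control replicates 1 and 2, while the controls correlated at 0.911 with each other. Fibronectin replicate 1 correlated at 0.904 and 0.847 with control replicates 1 and 2, more than with fibronectin replicate 2, so the fibronectin arrays did not group together. Fibronectin replicate 2 gave the highest value of 3 receptor probe sets and the lowest of both Agtr1a probe sets, not counting ties at the floor. The median gap between replicates over the tested probe sets was 0.58 on the log2 scale for fibronectin and 0.36 for the controls. Markers of the labelled cell type were present, with 16 of 17 on the array and none at the floor on all arrays. Their summed signal was 103736 and 106142 on fibronectin, against 105104 and 99332 on the controls. Quantile normalization gives the brightest ranks the same values on every array. Many of these genes are that bright, so near-equal sums were partly fixed in advance and do not measure myocyte content. The groups did not overlap for 4 of the 16 with fibronectin below control and 3 above, against 17.3% and 20.5% of 7102 genes. The median difference was 0.09. Among markers of other cells that can carry these receptors, 6 of 10 smooth muscle and pericyte genes were lower on fibronectin, with a median difference of -0.28. The smooth muscle sums of 7885 and 10376 on fibronectin lay within the 7223 and 12325 of the controls. Endothelial genes were lower in 4 of 10, with a median of 0.21. Their sums of 1885 and 1865 on fibronectin lay within the 1678 and 2222 of the controls. Vwf, which marks endothelium, was at the floor on 3 arrays, while Eng, Kdr, Emcn, Esam and Cav1 were above it on all 4. Leukocyte genes were lower in 8 of 13, with a median of -0.47. Their sums of 1420 and 1612 on fibronectin lay below the 1989 and 2502 of the controls. The largest part was Lgals3, with signals of 445 and 518 on fibronectin, against 663 and 868 on the controls. The other 5 of the 13 genes were higher, and Ptprc and C1qb among them were at the floor on 2 arrays each. Neural and Schwann cell genes were higher in 9 of 12, with a median of 0.35, and their sums of 2345 and 2711 on fibronectin lay above the 1601 and 1600 of the controls. Much of these sums came from Pmp22, with signals of 1276 and 1165 on fibronectin, against 698 and 988 on the controls. The groups did not overlap for 4 of the 12 with fibronectin above control and 1 below, against 20.5% and 17.3% of 7102 genes. Those above were Pmp22, Cnp, Prph and Gap43, and the last 3 differed by 1.01, 1.65 and 1.18. Gap43 was at the floor on 1 array, Ngfr on 4 and Sox10 on 3. The part of these markers in the receptor differences was not tested.

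The pathway around these receptors was described from 6 lists of 122 genes in all, of which 107 were on the array and 64 had a tested probe set. Each gene was represented by its tested probe set of highest mean signal. In limma 0 passed the Benjamini-Hochberg threshold in either direction, as did 0% of 7102 genes, and 7, or 10.9%, had an unadjusted p under 0.05, against 405 of the 7102, or 5.7%. The groups did not overlap for 22 of the 64 genes, with fibronectin above control for 7 and below it for 15, against 20.5% and 17.3% of the 7102 genes. The median log2 difference over the 7102 genes was 0.02.

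Among relatives of the receptors, 11 of 13 genes were on the array and 3 were tested, with a median log2 difference of 0.34. Adrb3, another beta-adrenergic receptor, had signals of 62.7 and 63.1 on fibronectin, against 73.7 and 67.0 on the controls. It differed by -0.16 (SE 0.68), with a Benjamini-Hochberg adjusted p of 0.963 in limma. The tested genes of ligand synthesis and clearance numbered 7, with a median of -0.42. Of them 2 were lower on fibronectin without overlap and 0 higher, against 17.3% and 20.5% of 7102 genes. Edn1, the precursor of endothelin, had signals of 68.8 and 173.9 on fibronectin, against 109.6 and 195.7 on the controls, and the groups overlapped. Its difference was -0.42 (SE 0.61), or 0.23 without fibronectin replicate 1. Ece1, the enzyme that releases active endothelin, had signals of 294.4 and 145.5 on fibronectin, against 367.9 and 493.7 on the controls, a difference of -1.04 (SE 0.44). That difference was -0.54 without fibronectin replicate 2 and -1.49 without fibronectin replicate 1. Enpep, the aminopeptidase that degrades angiotensin II, had signals of 64.6 and 20.4 on fibronectin, against 172.7 and 217.4 on the controls. Of these values, that of fibronectin replicate 2 was under the floor. The Enpep difference was -2.32 (SE 0.68) with a Benjamini-Hochberg adjusted p of 0.719 in limma. With 1 array left out it ran from -2.98, without fibronectin replicate 1, to -1.63, without fibronectin replicate 2. A second Enpep probe set was dim and untested, with overlapping groups and a difference of -0.92. Agt, the angiotensin precursor, was above the floor on 1 control array only. Ace, the angiotensin-converting enzyme, had 2 probe sets left out as dim that differed by -0.06 and 0.14.

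By the brightest tested probe set, 5 of 17 G protein subunit genes were higher and 5 lower on fibronectin without overlap, with a median of 0.24. Over 7102 genes these shares were 20.5% and 17.3%. The split depended on the probe set chosen. Gnb2 and Gng5, counted as higher by 0.36 and 0.30, each had another tested probe set lower without overlap, by -1.22 and -0.95. Gnas, the alpha subunit of Gs through which Adrb1 signals, had signals of 3705 and 3990 on fibronectin, against 8012 and 5547 on the controls. Both fibronectin arrays were lower, 1.73-fold on average, and the difference of -0.79 (SE 0.28) gave a Benjamini-Hochberg adjusted p of 0.719 in limma. On the deposited scale the Gnas difference was -0.30, and with the medians of the arrays made equal it was -0.35. A dimmer Gnas probe set left out of the test differed by 1.63, and another was at the floor throughout. Gnaq, the alpha subunit of Gq through which the alpha-adrenergic and Agtr1a receptors signal, had signals of 8.15 and 8.12 on fibronectin, against 97.6 and 47.2 on the controls. Both fibronectin values lay under the floor, which makes Gnaq at least 2.90-fold lower there, and it was left out of the test as dim.

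Further G protein genes named by the rule went both ways. Gnai2, an alpha subunit of the inhibitory G proteins, differed by -0.70 (SE 0.32), or by -0.45 without fibronectin replicate 1. The beta subunit gene Gnb1 differed by -2.62 (SE 0.79) in its brightest probe set, with a Benjamini-Hochberg adjusted p of 0.719 in limma, and by 0.20 and -0.19 in its other tested ones. Leaving out control replicate 1 gave an adjusted p of 0.0136 at a difference of -3.44, and leaving out fibronectin replicate 2 gave 0.0260 at -3.86. Leaving out fibronectin replicate 1 gave 0.186 at -1.39, and leaving out control replicate 2 gave 0.9997 at -1.89. Gnb5, another beta subunit, differed by 1.05 (SE 0.52), and the gamma subunit Gng11 by 0.81 (SE 0.47). For Gng11 the value was 0.35 without fibronectin replicate 1 and 1.28 without fibronectin replicate 2. Gng5, also a gamma subunit, differed by 0.30 (SE 0.25) in the brighter probe set and by -0.95 in the dimmer. The brighter one differed by 0.68 on the deposited scale and by 0.63 with equal medians.

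Effectors of Gq were phospholipase C, inositol trisphosphate receptor, protein kinase C, diacylglycerol kinase and Trpc channel genes. The groups overlapped in each of 10 tested genes, with a median of 0.19. Effectors of Gs, the cyclic AMP pathway, were lower on fibronectin without overlap in 6 of 16 tested genes and higher in 0, with a median of -0.27. Over 7102 genes 17.3% were lower and 20.5% higher without overlap. Prkaca, the catalytic subunit of the cyclic AMP-dependent kinase, had signals of 849.9 and 586.1 on fibronectin, against 1561 and 1237 on the controls. Its difference was -0.98 (SE 0.32), with a Benjamini-Hochberg adjusted p of 0.719 in limma. Creb1, a transcription factor phosphorylated by that kinase, differed by -1.21 (SE 0.49) in the brightest of its probe sets. Creb1 also had a pair of dim, untested probe sets with overlapping groups, which differed by -0.43 and 0.19. Adcy3, an adenylyl cyclase, differed by -1.42 (SE 0.71), or by -0.76 without fibronectin replicate 2 and -2.09 without fibronectin replicate 1. Whether the Gs list differed from the Gq list was not tested.

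Genes of receptor desensitization had a median of 0.18 over 11 tested genes. Of these, 2 were higher and 1 lower on fibronectin without overlap, against 20.5% and 17.3% of 7102 genes. Rgs10, which speeds the hydrolysis of GTP by G protein alpha subunits, had signals of 388.9 and 474.3 on fibronectin, against 187.5 and 227.9 on the controls. The groups were apart by 1.06 (SE 0.36) on the log2 scale, with a Benjamini-Hochberg adjusted p of 0.719 in limma. Rgs12, of the same family, differed by 0.51 (SE 0.48), which became 0.03 without fibronectin replicate 2 and 0.94 without fibronectin replicate 1. Grk2, the main kinase that phosphorylates activated beta-adrenergic receptors, differed by -0.37 (SE 0.59), or by -0.06 without fibronectin replicate 2 and -0.66 without fibronectin replicate 1. The arrestin gene Arrb1 was at the floor on all 4 arrays. The part of the 3' to 5' ratios given above in the differences of the pathway genes was not tested.

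**Figure D5:**
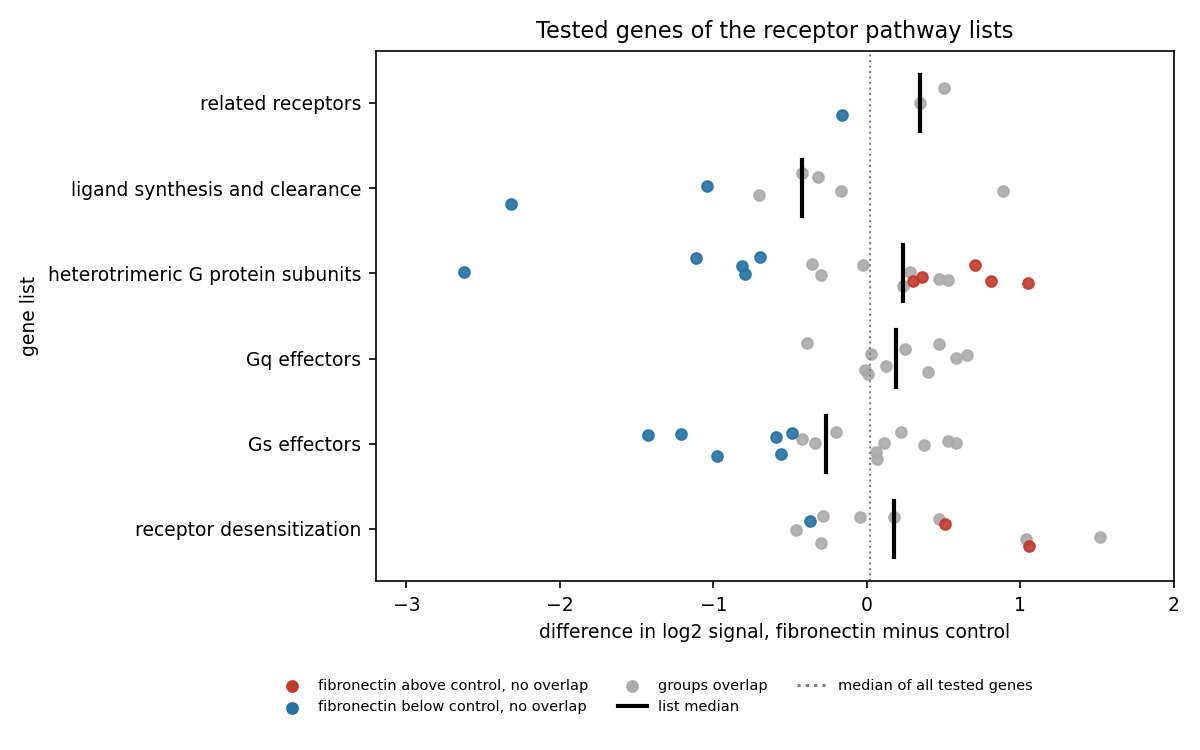
Difference in log2 signal, fibronectin minus control (horizontal axis), for the tested genes of 6 pathway lists (vertical axis), 1 point per gene. Red and blue points are genes without overlap between groups, black bars the list medians and the dotted line the median of 7102 genes at 0.02. The Gs effectors hold 6 blue points and 0 red ones among 16 genes, and the Gq effectors hold neither among 10. Over the 7102 genes 17.3% were lower and 20.5% higher without overlap.

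The genes most alike in pattern over the 4 arrays were taken as those with the smallest root mean square distance between log2 signals centred on their own mean. For the brighter Agtr1a probe set these were Kalrn at 0.017, Serpinh1, the collagen chaperone of the endoplasmic reticulum, at 0.024 and Impact at 0.035, and 334 genes lay within 0.2. For Adra1b they were Uxs1 at 0.057, Ppp1r36 at 0.062 and Arfgap3 at 0.063, with 48 genes within 0.2. With 4 arrays such likeness is a description of these arrays alone.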

How the data were processed

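Each deposited value is a signal intensity on a linear scale, for 15875 probe sets on 4 arrays. The scanner processing and scaling behind these values are not stated in the labels or the file header. Samples were grouped by their titles. The 9 control probe sets were left out. The rest were quantile normalized, raised to a floor of 23.4 (log2 4.55), converted to log2 and filtered, which left out 6347 probe sets as dim. Groups were compared in limma 3.58.1 (R 4.3.3) with lmFit and trended eBayes, two-sided, with Benjamini-Hochberg adjustment over 9519 probe sets. Errors beside differences are moderated standard errors. An exact permutation test of 2 arrays against 2 can give no p below 0.333. The number of arrays limits the precision. The fit was tested on simulated data with independent normal noise for each probe set. Those data had no outlying array and no values tied at the floor, so they cannot show how the fit performs on these arrays.

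Gene names came from the platform annotation, where 12783 probe sets had 1 symbol, 312 several and 2771 none, and those with several or none were not named. No coordinates are given. Named pathway genes were, per list and direction, up to 3 with the smallest limma p among those without overlap, plus Edn1, Agt, Ace, Gnaq, Gnas, Arrb1 and Grk2. Values of other probe sets of a named gene, and of Gnb2, were added after their values were seen. The same holds for Dcn, Pdgfra, S100a4, Ddr2 and Tcf21 among the fibroblast markers. It also holds for Pmp22, Cnp, Prph, Gap43, Ngfr and Sox10 of the neural list, and for Lgals3, Ptprc and C1qb of the leukocyte list. Eng, Kdr, Emcn, Esam and Cav1 of the endothelial list were added in that way too. The receptors, lists, tests and settings were chosen with earlier results of these data known. Alternatives changed the normalization, the filter, the floor, the variance model and the threshold (to 0.10), added a block for the replicate number, or left out 1 array at a time.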

Additional observations from a re-analysis of the deposited data

How the results depend on the processing

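The number of probe sets past the threshold was 0 and the number of receptor probe sets past it was 0. Leaving out 1 array gave 0 to 429 probe sets (12 without control replicate 1, 16 without fibronectin replicate 2, 429 without fibronectin replicate 1) where the single array left in a group was taken to vary as the other group does, and 0 receptor probe sets in each. It gave 4 to 5 receptor probe sets without overlap in place of 3, against 52% to 72% of all probe sets, and 2 to 3 above the floor on every array in place of 2. With the replicate number as a block 230 probe sets passed, among them 0 receptor probe sets and the named probe sets of Gnas, Gnb1 and Prkaca, with Benjamini-Hochberg adjusted p of 0.0468, 2.66e-07 and 0.0319 in limma. No label pairs equal numbers, so the numbers were not taken as pairing. Deviations from the group means correlated at 0.27 between equal numbers, with 2 pairs. Whether equal numbers share a culture or a batch cannot be told from the labels. Over these 4 settings the Adra1b difference spanned -0.66 to 0.75, negative without control replicate 2 or fibronectin replicate 1 (-0.15), and that of Edn1 spanned -1.12 to 0.23, positive without fibronectin replicate 1. The cause was not tested. Of 406 recomputed differences of receptor and named pathway probe sets, 386 kept direction and side of the threshold or, where untested, moved by less than 1 SD. Settings that changed only the filter, the variance model or the block cannot change a difference, so part of that count was fixed in advance. The SD was the larger of the 2 groups', from 2 arrays each, and was as wide as 1.97 for Adrb1. Large moves of untested differences therefore count among the 386. Of the untested differences 2 turned sign, Adrb1 to -0.25 without fibronectin replicate 2 and an Ace probe set to 0.58 without fibronectin replicate 1, and 7 became 0. Among the 406 differences 17 belonged to probe sets left out as dim under that setting. Without a floor the Agtr2 probe set 1369711_at differed by 2.81 and with an offset of 50 by 0.74, against 1.12, since its control values lie at the floor. Likewise the dimmer Agtr1a probe set differed by -2.52 without a floor, against -1.47, and Adrb1 by 0.27, against 1.13. Without a floor, or with an offset, the count above the floor has no value.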
